A study of Homo sapiens with 12 samples.

Results

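The HOX cluster genes were followed in HK-2, an established line of human kidney proximal tubule cells, by RNA sequencing of 12 bulk libraries. Members were the rows of the deposited gene table whose symbols are HOXA, HOXB, HOXC or HOXD followed by a number, and 39 of 35238 genes met this rule. Of these, 11 lie in the HOXA cluster on chromosome 7, 10 in HOXB (hg38 chr17:48528526-48728750), 9 in HOXC (chr12:53938831-54056030) and 9 in HOXD (chr2:176092721-176190907). No measured value was used to choose them.

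HOX genes encode homeodomain transcription factors that give cells their position along the head-to-tail axis of the embryo. Genes of a cluster are read in the same direction and are numbered from the 3′ end, whose low-numbered members are active early and towards the head, to the 5′ end, whose high-numbered members are active late and towards the tail. Members with the same number in different clusters are paralogs, and the paralogs HOXA11, HOXC11 and HOXD11 are known for their part in forming the kidney. Polycomb proteins keep unused ends of the clusters silent, trithorax proteins keep used ends active, and retinoic acid is a classical inducer of the 3′ end.

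Each of 4 groups held 3 replicates. All cells were transfected with 10 nM of a short interfering RNA (siRNA), either scrambled (SCR) or against POLR2A (siB), and at the same time received either DMSO as vehicle or aristolochic acid I (AAI) at 25 µM for 24 hours. AAI is a nephrotoxin from plants that damages DNA. The groups were SCR DMSO, SCR AAI, siB DMSO and siB AAI. HK-2 is a single immortalized line, and nothing in the labels says that the replicates came from separate cultures, so p-values measure the spread between these libraries only. POLR2A, which encodes the largest subunit of RNA polymerase II, checked the labels. Its level was 284 ± 24.2 CPM (counts scaled to a library total of 1000000; SD, n = 3) in SCR DMSO, 707 ± 30.1 in SCR AAI, 140 ± 2.61 in siB DMSO and 232 ± 29.5 in siB AAI, so the siB libraries lay below the SCR libraries with DMSO (log2 difference -1.01 ± 0.13, SE, adjusted p = 0.505) and with AAI (log2 difference -1.61 ± 0.15, SE, adjusted p = 0.000582).

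The libraries held 15844015 to 42805294 reads assigned to genes, and 3 reads, the limit that 0 reads allow, corresponded to 0.0701 to 0.189 CPM. This limit covers counting error only. Of 12 proximal tubule markers, 4 had a mean of at least 1 CPM over the 12 libraries, while the transporters SLC22A6 and SLC22A8 lay within the 3-read limit in every library. All 6 general epithelial markers were present, with KRT8 at a mean of 657 CPM over the 12 libraries. Of 3 endothelial markers, PECAM1 was the one above 1 CPM in each group, and KDR lay within the 3-read limit. The 33 well-expressed HOX members varied least in siB DMSO, where the median coefficient of variation was 10.2%, and most in SCR DMSO, where it was 28.0%. In SCR DMSO, replicate 3 held the lowest value of 25 of those 33 members.

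Nearly every member of the 4 clusters was transcribed in these cells. With a mean over the 12 libraries of at least 1 CPM taken as active, 33 of 39 members were active. Runs of active members included HOXA2 to HOXA11, HOXB2 to HOXB13, HOXC4 to HOXC10 with HOXC13 standing alone, and HOXD1 to HOXD11. Of the rest, 5 were weak (HOXA13, HOXB1, HOXC11, HOXC12 and HOXD13), and HOXD12, a limb patterning gene, was above the 3-read limit in no library and was classed as silent. The 5′ ends of HOXA and HOXD were therefore weak or silent, while HOXB13 at the 5′ end of HOXB was on.

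HOXA and HOXD ended in steep steps. In HOXA, HOXA11 had values of 3.74, 5.58 and 2.61 CPM in SCR DMSO, 4.31, 5.3 and 7.87 in SCR AAI, 3.29, 4.64 and 5.52 in siB DMSO and 3.98, 3.65 and 3.91 in siB AAI. Its 5′ neighbour HOXA13, which patterns digits and the genital tract, had 0.231, 0.0467 and 0.147 CPM in SCR DMSO, 0.221, 0 and 0 in SCR AAI, 0.0427, 0.18 and 0.112 in siB DMSO and 0.252, 0 and 0 in siB AAI. The canonical transcript of HOXA11 starts 9131 bp from the end of HOXA13, and no HOXA11 value overlapped a HOXA13 value.

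In HOXD, HOXD11 had 11.6, 10.8 and 9.19 CPM in SCR DMSO, 11.6, 10.9 and 12.6 in SCR AAI, 9.83, 10.3 and 9.59 in siB DMSO and 10.2, 9.55 and 7.07 in siB AAI. The neighbouring HOXD12 had 0.0462, 0.0701 and 0.0735 CPM in SCR DMSO, 0, 0 and 0.0783 in SCR AAI, 0.0427, 0.0451 and 0 in siB DMSO and 0, 0 and 0.107 in siB AAI, and HOXD13 had a highest value of 0.379 CPM, in siB AAI replicate 1. No HOXD12 value exceeded 0.107 CPM and no HOXD11 value fell below 7.07 CPM, across a gap of 4790 bp.

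HOXC had a graded 5′ end. HOXC10 had 11.7, 11.8 and 9.78 CPM in SCR DMSO, 15.2, 11.9 and 14.4 in SCR AAI, 11.5, 9.92 and 10.1 in siB DMSO and 7.51, 12 and 10.4 in siB AAI. HOXC11 beyond it had 1.29, 1.43 and 1.1 CPM in SCR DMSO, 0.718, 0.816 and 0.196 in SCR AAI, 0.855, 0.586 and 0.725 in siB DMSO and 0.189, 0.323 and 0.375 in siB AAI, so this kidney paralog was near the 3-read limit in siB AAI. HOXC12 and HOXC13 followed further 5′.

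HOXC12 had 0, 0.21 and 0.478 CPM in SCR DMSO, 0.442, 1.99 and 0.47 in SCR AAI, 0.0855, 1.67 and 0.948 in siB DMSO and 0.568, 0.692 and 0.536 in siB AAI, a spread within groups as wide as that between them. HOXC13, known for its part in hair and nail formation, had 1.52, 1.8 and 0.956 CPM in SCR DMSO, 2.04, 1.54 and 1.33 in SCR AAI, 1.2, 2.25 and 1.78 in siB DMSO and 0.757, 0.646 and 1.02 in siB AAI. The siB AAI values of HOXC13 lay below all those of SCR AAI and siB DMSO, and overlapped SCR DMSO.

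At the 3′ end of HOXD, HOXD1 was active at the very edge of its cluster. It had 1.62, 3.01 and 1.76 CPM in SCR DMSO, 4.42, 2.45 and 2.23 in SCR AAI, 2.27, 2.03 and 1.06 in siB DMSO and 3.6, 2.4 and 2.68 in siB AAI. The HOXD1 libraries with AAI lay above those with DMSO with siB, and overlapped them with SCR.

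In HOXC the 3′-most member is HOXC4, which had 2.96, 1.71 and 1.32 CPM in SCR DMSO, 2.93, 1.22 and 1.25 in SCR AAI, 1.62, 1.98 and 1.95 in siB DMSO and 2.97, 1.25 and 1.45 in siB AAI, and its groups overlapped throughout. In HOXB the edge lay between HOXB2, with 19.9, 34.5 and 16 CPM in SCR DMSO, 29, 38.2 and 33.9 in SCR AAI, 19.9, 24.9 and 22.7 in siB DMSO and 22.7, 20.8 and 28.8 in siB AAI, and HOXB1, a hindbrain gene whose values are given with the comparisons. At the other end of HOXB, HOXB13, known from the prostate, had 5.22, 5.65 and 4.45 CPM in SCR DMSO, 8.28, 6.07 and 6.22 in SCR AAI, 4.27, 5.77 and 7.25 in siB DMSO and 6.12, 4.52 and 6.97 in siB AAI. HOXB13 was present in each library, and 98404 bp separate it from HOXB9.

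**Figure D1:**
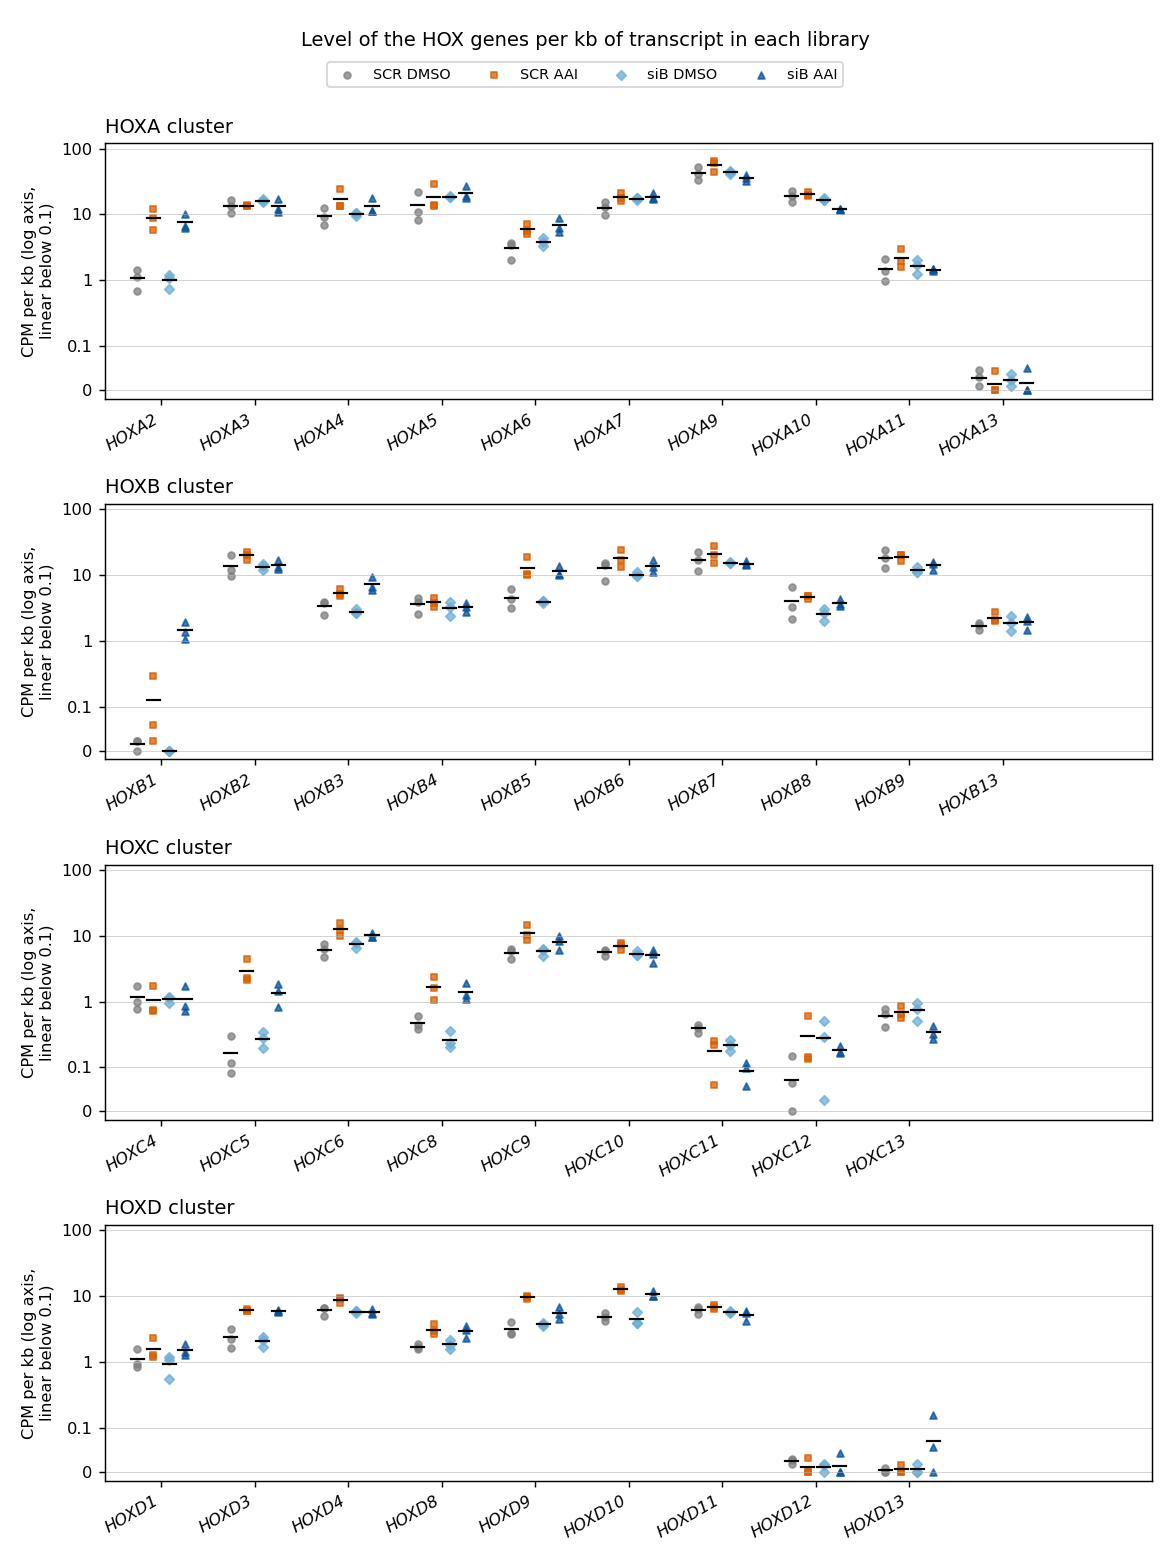
Levels of HOX members in CPM per kb of the canonical transcript (log axis, linear below 0.1), 1 panel per cluster with members in order from the 3′ to the 5′ end. Points are the 12 libraries by group and black bars are means of 3; HOXA13, HOXD12 and HOXD13 lie near 0, and HOXB1 leaves 0 mainly in siB AAI.

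Levels of different genes were compared per kb of the canonical transcript. HOXA9, a regulator of blood stem cells and leukaemia, was the highest member at 44.8 CPM per kb over the 12 libraries, and its lowest library (32.2) lay above the highest library of every other member. HOXA5 (18.2), HOXB7 (17.1), HOXA10 (17.1) and HOXA7 (16.8) came next, and their ranges over libraries overlapped, so their order is not resolved. HOXC6 led in HOXC with 9.04 CPM per kb and HOXD10 in HOXD with 8.22.

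Taken per library, HOXA9 had 110.0, 85.2 and 70.1 CPM in SCR DMSO, 134, 89.9 and 126 in SCR AAI, 95.9, 90.3 and 86.5 in siB DMSO and 81.1, 66.4 and 74.4 in siB AAI, so siB AAI was the lowest group and did not overlap SCR AAI. HOXB7, a ureteric bud gene, had 23.1, 30.3 and 16 CPM in SCR DMSO, 37.7, 20.7 and 27.4 in SCR AAI, 21.5, 21.1 and 20.5 in siB DMSO and 19.1, 19.8 and 22.1 in siB AAI. HOXC6, a thoracic patterning gene, had 12.4, 10.2 and 7.83 CPM in SCR DMSO, 25.4, 16.6 and 19.9 in SCR AAI, 12.7, 13.3 and 10.9 in siB DMSO and 18.4, 15.7 and 15.8 in siB AAI. In both siRNA settings the HOXC6 libraries with AAI lay above those with DMSO, whereas HOXB7 overlapped.

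The first comparison asked how AAI changed the clusters in cells given the scrambled siRNA. With SCR, AAI raised 7 of the 34 members tested at least 2-fold and lowered none, where 7.73% of the 14228 genes tested were raised and 2.73% were lowered (limma, adjusted p under 0.05). At the adjusted p alone the members were the same 7 raised and 0 lowered, against 8.98% and 3.36% of genes. The 7 came from all 4 clusters: HOXA2, HOXB5, HOXC5, HOXC8, HOXD3, HOXD9 and HOXD10. Fold changes are differences of log2(CPM + 1), which understate changes of low genes. Of the 34 members, 32 lay higher with AAI and the median difference was 0.49, against 0.18 over all genes tested. With median-ratio size factors these became 26 of 34 and 0.30, because that scaling moved the median of all genes from 0.18 to -0.01. Without SCR DMSO replicate 3 they were 27 of 34 and 0.31. In bulk libraries, more cells expressing a gene cannot be told apart from more RNA per cell.

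HOXA2, which patterns the hindbrain and the second branchial arch, showed the largest rise on the log2(CPM + 1) scale. It had 2.4, 1.14 and 1.88 CPM in SCR DMSO and 20.6, 9.92 and 14.9 in SCR AAI, a ratio of means of 8.39 (log2 difference 2.50 ± 0.33, SE, adjusted p = 0.00216). Every AAI library lay above every DMSO library. HOXA2 was called under all 12 alternative settings.

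HOXC5, a neck and upper trunk patterning gene, was near the detection limit in SCR DMSO at 0.139, 0.187 and 0.478 CPM and reached 7.12, 3.4 and 3.72 in SCR AAI. Its ratio of means was 17.7 and its log2 difference, held down by the added 1 CPM, was smaller than that of HOXA2 (log2 difference 2.13 ± 0.28, SE, adjusted p = 0.00208). HOXC5 passed the low-value filter only through the AAI libraries. HOXC8, a mid-trunk gene from 5′ of it, rose from 1.43, 0.934 and 1.07 CPM to 5.74, 2.54 and 3.88 (log2 difference 1.19 ± 0.27, SE, adjusted p = 0.0273). The member between them, HOXC6, was higher with AAI in each library but was not called (log2 difference 0.96 ± 0.28, SE, adjusted p = 0.0674; adjusted p = 0.0298 with the replicate number as a block). HOXC4, at the 3′ end, did not pass the test either (log2 difference -0.11 ± 0.31, SE, adjusted p = 0.844).

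In HOXD, 3 members rose. HOXD9, which patterns the lumbar region and hind limb, went from 4.94, 7.59 and 5.26 CPM to 19.1, 18 and 17.3 (log2 difference 1.48 ± 0.26, SE, adjusted p = 0.00838). Its neighbour HOXD10 went from 10.0, 7.48 and 8.57 CPM to 22.2, 21.2 and 24.5 (log2 difference 1.29 ± 0.24, SE, adjusted p = 0.0119). HOXD3, from the head-ward part of the cluster, went from 4.07, 7.83 and 5.59 CPM to 15.7, 14.9 and 14.5 (log2 difference 1.27 ± 0.28, SE, adjusted p = 0.0237). For all 3 the SCR AAI values were tight and lay above every SCR DMSO value. HOXD11, immediately 5′ of HOXD10, differed by less than its error (log2 difference 0.14 ± 0.24, SE, adjusted p = 0.735), although exons of the 2 genes overlap in the annotation.

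HOXB5, a gene of lung and gut innervation, had 11.5, 7.97 and 5.96 CPM in SCR DMSO and 34.7, 18.4 and 19.3 in SCR AAI (log2 difference 1.39 ± 0.35, SE, adjusted p = 0.0385). It was the one HOXB member called with SCR. HOXB1 could not be tested in this pair, since no library of the pair reached 1 CPM. Groups that did not overlap, higher with AAI, were seen for 18 of 34 members and for 22.2% of all genes tested. HOXC11 was the 1 member whose AAI libraries all lay lower (log2 difference -0.55 ± 0.21, SE, adjusted p = 0.139), where 11.5% of genes did so.

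The count of 7 depended on single libraries. It was 3 without SCR DMSO replicate 3, without SCR AAI replicate 1 or without SCR AAI replicate 3, and 4 without SCR AAI replicate 2, while HOXA2, HOXC5 and HOXD9 were called in each of these fits. Calls over all 14228 genes tested fell in these 4 fits too. In the order given, those raised went from 1100 to 780, 794, 757 and 787. Those lowered went from 389 to 193, 163, 118 and 122. Without SCR DMSO replicate 2, the library of greatest depth, the count of members was again 7, with 1235 genes raised. With the replicate number as a block it was 7 too, and at the adjusted p alone 10 members were raised, the added ones being HOXA4, HOXC6 and HOXC9, where 14.7% of all genes were raised in that fit. Counts are uncertain where genes share sequence: HOXB3 and HOXD10 share exons with other members, HOXC5 with readthrough genes, and HOXB3, HOXB5 and HOXD3 face antisense RNAs, while the strand setting of the counting is not given in the sources used here.

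**Figure D2:**
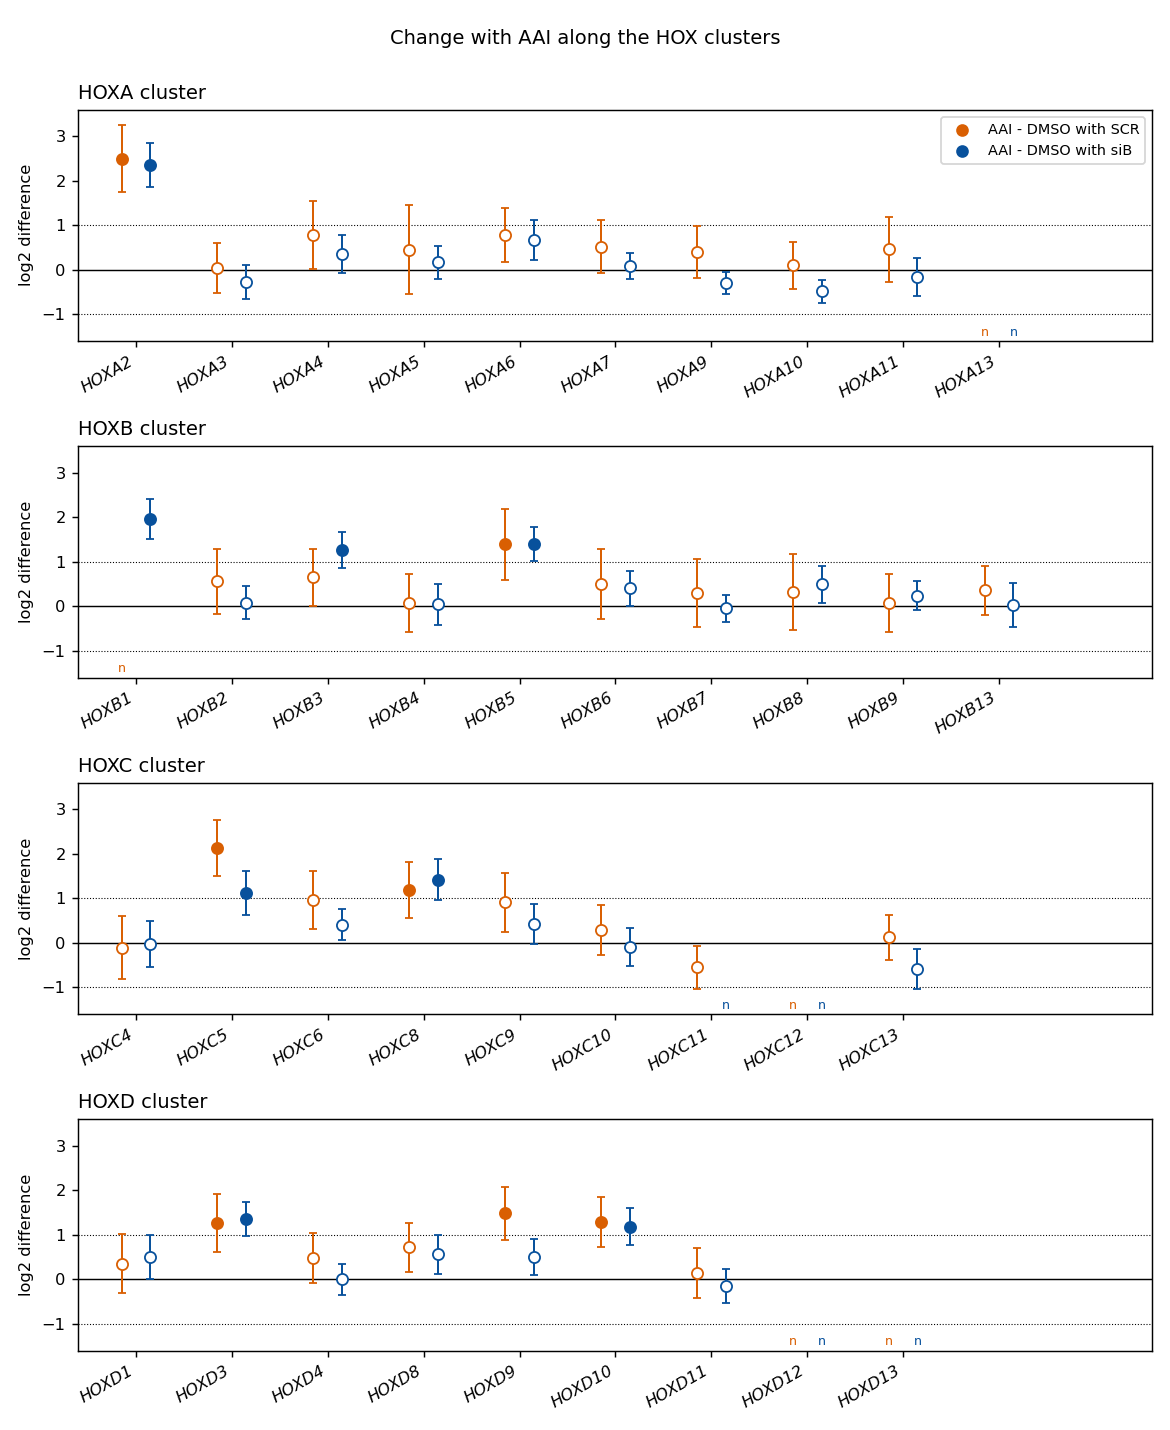
Difference between AAI and DMSO for HOX members, as log2(CPM + 1) with 95% confidence intervals from limma, with SCR (orange) and with siB (blue); members run from the 3′ to the 5′ end. Filled points were called, open points were not, n marks members not tested, and dotted lines mark 2-fold; HOXA2 has the largest difference on this scale with either siRNA, and with median-ratio scaling 26 rather than 32 of 34 members lay above 0 with SCR.

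Upstream sequences were examined for the members that moved. RefSeq (GRCh38.p14) gave start sites for 20 of the 39 members, in 27 windows, and HOXB5, HOXC8, HOXD9 and HOXB3 were not among them. The 250 bases before the start are shown 5′ to 3′ for 4 members raised by AAI and for HOXA9 and HOXA10, the high members that were lower with siB under AAI. HOXD3, also raised, had a window with 2 GGGCGG and 1 CCAAT matches that is not shown. A second HOXA10 start, 5541 bases from the canonical one, is not shown either. Capitals mark matches, on either strand, to the TATA element TATAAA, the CCAAT box CCAAT, the GC box GGGCGG, the retinoid receptor half-site AGGTCA, the composite HOX-PBX element TGATNNAT and the AP-1 element TGANTCA, and no matches overlapped in these windows.
HOXA2 (chr7:27102684-27102933, minus strand): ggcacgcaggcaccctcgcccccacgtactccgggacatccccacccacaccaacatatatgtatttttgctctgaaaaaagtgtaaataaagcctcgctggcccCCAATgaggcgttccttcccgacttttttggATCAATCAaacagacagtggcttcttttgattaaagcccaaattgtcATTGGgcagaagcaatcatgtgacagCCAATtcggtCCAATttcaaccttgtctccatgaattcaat
HOXB1 (chr17:48531012-48531261, minus strand): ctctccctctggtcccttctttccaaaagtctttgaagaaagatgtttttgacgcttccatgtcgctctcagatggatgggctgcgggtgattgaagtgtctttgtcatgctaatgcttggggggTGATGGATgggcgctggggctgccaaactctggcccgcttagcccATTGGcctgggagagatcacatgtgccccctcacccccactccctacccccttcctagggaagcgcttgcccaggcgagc
HOXC5 (chr12:54016638-54016887, plus strand, a start shared with HOXC4): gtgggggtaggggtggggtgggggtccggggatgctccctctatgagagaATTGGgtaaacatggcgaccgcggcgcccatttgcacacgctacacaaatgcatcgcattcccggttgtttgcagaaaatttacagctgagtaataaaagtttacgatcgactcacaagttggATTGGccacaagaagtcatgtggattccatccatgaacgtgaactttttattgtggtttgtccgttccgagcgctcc
HOXD10 (chr2:176116528-176116777, plus strand): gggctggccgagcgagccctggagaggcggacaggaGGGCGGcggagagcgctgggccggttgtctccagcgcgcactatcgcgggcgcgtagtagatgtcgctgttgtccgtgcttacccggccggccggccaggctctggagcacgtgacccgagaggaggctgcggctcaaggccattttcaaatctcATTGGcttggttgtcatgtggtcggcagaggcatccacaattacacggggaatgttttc
HOXA9 (chr7:27165538-27165787, minus strand): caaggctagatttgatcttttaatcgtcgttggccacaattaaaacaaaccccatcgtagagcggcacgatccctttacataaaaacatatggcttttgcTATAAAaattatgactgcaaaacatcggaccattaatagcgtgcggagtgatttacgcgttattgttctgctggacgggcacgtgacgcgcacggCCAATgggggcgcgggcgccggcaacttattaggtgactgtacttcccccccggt
HOXA10 (chr7:27174321-27174570, minus strand): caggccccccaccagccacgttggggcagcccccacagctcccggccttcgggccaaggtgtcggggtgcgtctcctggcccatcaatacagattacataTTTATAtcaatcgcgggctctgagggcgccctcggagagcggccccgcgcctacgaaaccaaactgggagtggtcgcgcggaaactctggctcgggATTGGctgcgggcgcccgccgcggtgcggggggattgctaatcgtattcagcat

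The HOXA2 window held 4 CCAAT matches, the nearest 31 bases before the start, and 1 TGATNNAT match. HOXB1 held 1 of each, with TGATNNAT beginning 125 bases and CCAAT 80 bases before the start. TGATNNAT was present in 3 of the 27 HOX windows and in 6.47% of all 35116 windows, and CCAAT in 18 of 27 and in 32.0% of all. TATAAA was present in 5 of 27 HOX windows and 10.7% of all, and GGGCGG in 13 of 27 and 42.6%. AGGTCA and TGANTCA had matches in none of the HOX windows, against 12.1% and 6.57% of all windows. HOXA9 and HOXA10 each held TATAAA 150 bases before the start and a single CCAAT match about 55 bases before it. The start that RefSeq gives HOXC5 lies 16162 bases from the start of its canonical transcript, so that window is upstream of HOXC6 exons as well and may not be the one used here.

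The second comparison asked for the response to AAI when POLR2A was knocked down. With siB, AAI raised 8 of 34 members and lowered none at 2-fold, where 13.9% of 14928 genes were raised and 5.79% were lowered. At the adjusted p alone 14 members were higher and 2 lower, against 30.4% and 21.8% of genes. The median difference was 0.38, against 0.10 over all genes tested, and it was 0.20 without siB AAI replicate 1. The 8 members were HOXA2, HOXB1, HOXB3, HOXB5, HOXC5, HOXC8, HOXD3 and HOXD10, and 6 of them were also called with SCR.

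On the log2(CPM + 1) scale HOXA2 again changed most, from 2.05, 1.8 and 1.23 CPM in siB DMSO to 17.2, 10.5 and 11.4 in siB AAI (log2 difference 2.37 ± 0.22, SE, adjusted p = 3.28e-05). HOXC8 went from 0.855, 0.496 and 0.558 CPM to 4.54, 3.05 and 2.68 (log2 difference 1.42 ± 0.20, SE, adjusted p = 0.000403), and HOXC5 from 0.556, 0.316 and 0.446 CPM to 2.97, 1.34 and 2.3 (log2 difference 1.12 ± 0.22, SE, adjusted p = 0.00217). The groups of neither gene overlapped. HOXC5 and HOXC8 passed the low-value filter only through the AAI libraries, and the HOXC5 change fell short of 2-fold without siB AAI replicate 1.

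HOXB5 went from 7.52, 7.62 and 6.91 CPM to 25.9, 19.2 and 18.4 (log2 difference 1.39 ± 0.17, SE, adjusted p = 0.000157). HOXB3, whose long transcript spans HOXB4 and whose exons overlap those of HOXB4 and HOXB6, went from 10.0, 8.79 and 8.75 CPM to 30.4, 19.3 and 21.9 (log2 difference 1.27 ± 0.18, SE, adjusted p = 0.000424). With SCR the same gene had 12.9, 12.3 and 8.09 CPM in DMSO and 20.5, 15.7 and 17.2 with AAI, which did not pass (log2 difference 0.65 ± 0.28, SE, adjusted p = 0.175), and the 2 responses did not differ by the interaction test (adjusted p = 0.444). HOXB4 itself did not pass with SCR (log2 difference 0.08 ± 0.28, SE, adjusted p = 0.891) or with siB (log2 difference 0.04 ± 0.20, SE, adjusted p = 0.867).

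HOXD3 went from 4.15, 5.95 and 5.3 CPM to 13.9, 15 and 14.8 (log2 difference 1.36 ± 0.17, SE, adjusted p = 0.000169), and HOXD10 from 10.2, 6.99 and 6.91 to 21.8, 18.2 and 18.1 (log2 difference 1.19 ± 0.18, SE, adjusted p = 0.000595). The HOXD3 levels in siB AAI overlapped those in SCR AAI. HOXD9 behaved otherwise, with 6.71, 7.12 and 7.47 CPM in siB DMSO and 12.9, 8.58 and 10.2 in siB AAI (log2 difference 0.50 ± 0.18, SE, adjusted p = 0.041), a rise past the adjusted p but short of 2-fold.

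HOXB1 was raised from 0 reads in all 3 siB DMSO libraries. It had 3.91, 2.17 and 2.79 CPM in siB AAI, 161 reads in total, at least 17.7-fold higher than the 3-read limit of a siB DMSO library (log2 difference 1.96 ± 0.20, SE, adjusted p = 4.99e-05). With SCR, 3 reads in DMSO stood against 15 with AAI, of which 11 were in replicate 1, a ratio of 6.97 with an exact 95% interval of 1.97 to 37.6 for counting error only. In the alternative limma fit with no filter, the SCR difference was 0.26 (adjusted p = 0.398). HOXB1 passed the filter in siB only through the AAI libraries.

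Downwards, HOXA10, which acts in the lumbar region and uterus, went from 42.1, 41.8 and 44.7 CPM to 29.3, 31.2 and 30.8 (log2 difference -0.48 ± 0.11, SE, adjusted p = 0.00602). HOXC13 went from 1.2, 2.25 and 1.78 to 0.757, 0.646 and 1.02 (log2 difference -0.59 ± 0.20, SE, adjusted p = 0.0309). Together with HOXA9 (log2 difference -0.30 ± 0.11, SE, adjusted p = 0.0512) these were the 3 members whose groups did not overlap on the lower side, where 26.6% of genes did so, while 17 members did so on the higher side, where 34.2% of genes did.

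**Figure D3:**
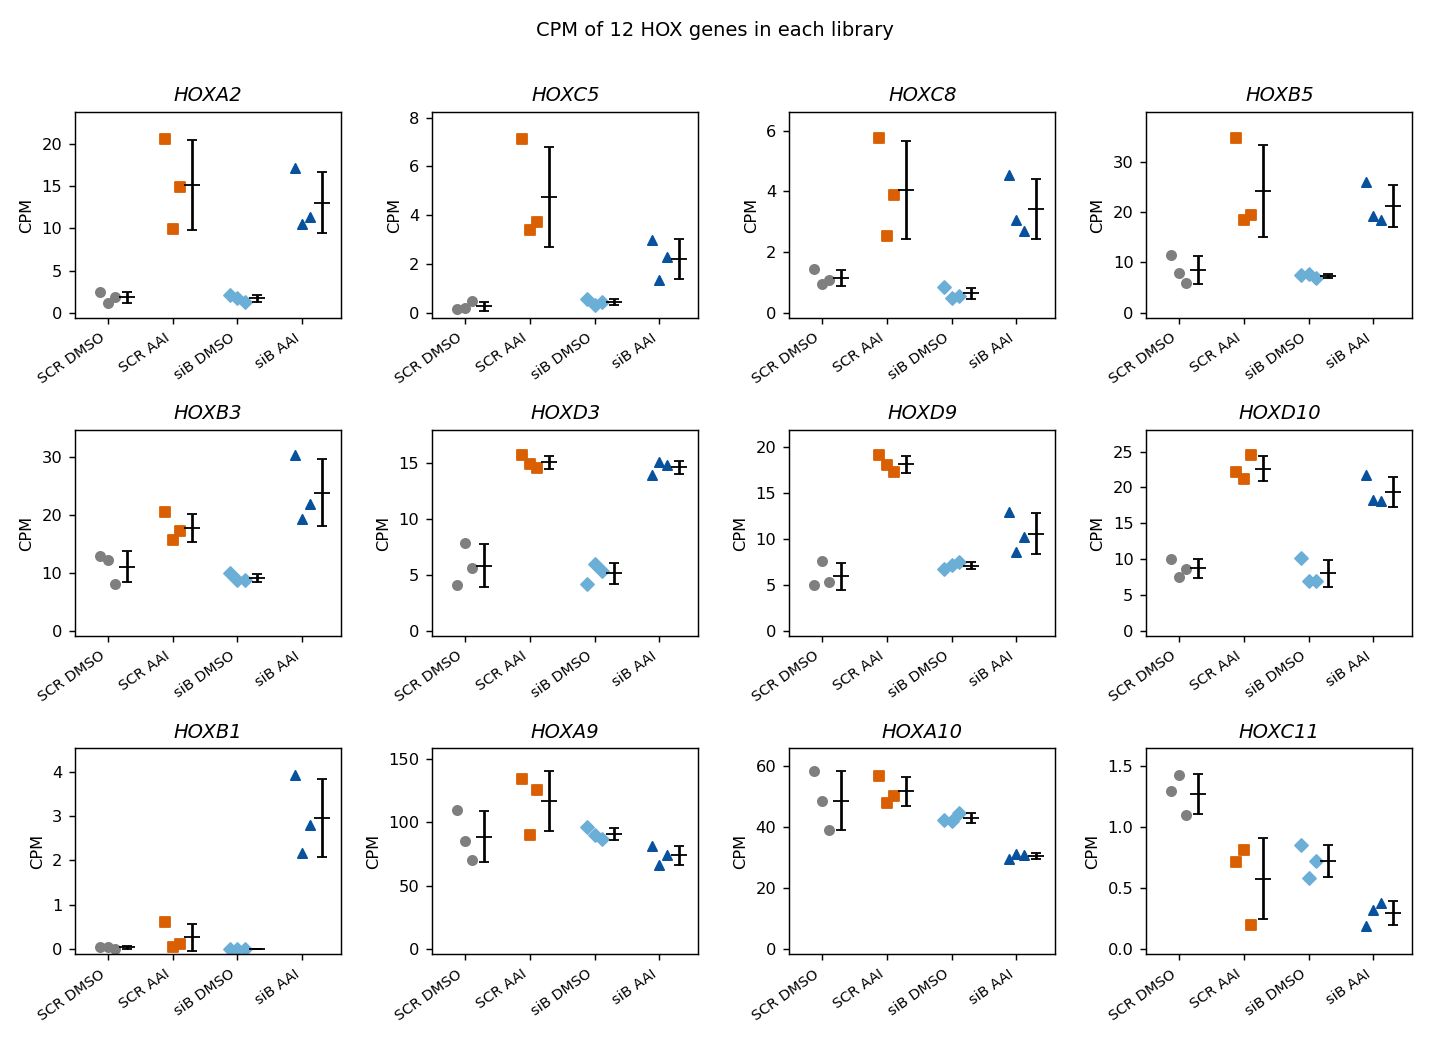
CPM of the 9 called HOX members and of HOXA9, HOXA10 and HOXC11 in each library (linear axes, 1 panel per gene). Coloured points are the 3 libraries of each group and black marks are means with SD; HOXA2, HOXD3 and HOXD10 stand higher with AAI under both siRNAs, HOXD9 is highest in SCR AAI, and HOXB1 in siB AAI.

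The third comparison set siB against SCR among the AAI-treated cells. HOXB1 was the 1 member of 34 called, where 3.04% of 14946 genes were raised and 0.629% were lowered. It had 0.607, 0.0453 and 0.117 CPM in SCR AAI and 3.91, 2.17 and 2.79 in siB AAI (log2 difference 1.66 ± 0.25, SE, adjusted p = 0.00323). As a ratio of reads per depth this was 12.6, with an exact 95% interval of 7.39 to 22.96 for counting error. It was called under all 12 alternatives, and it passed the low-value filter only through the siB AAI libraries.

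Most other members lay lower with the knockdown. Of 34 members, 27 lay lower in siB AAI than in SCR AAI with a median of -0.24, against 0.0023 over all genes, and with median-ratio scaling 27 of 34 again lay lower. The median was -0.11, with 12 of 34 higher, without SCR AAI replicate 1, and -0.39 without SCR AAI replicate 2. At the adjusted p alone HOXB1 was the 1 higher, against 5.49% of genes, and 3 were lower, against 3.79%: HOXA10 (log2 difference -0.74 ± 0.16, SE, adjusted p = 0.0156), HOXD9 (log2 difference -0.74 ± 0.20, SE, adjusted p = 0.0365) and HOXA9 (log2 difference -0.63 ± 0.18, SE, adjusted p = 0.0465). HOXA10 had 56.7, 47.8 and 50.2 CPM in SCR AAI and the 29.3, 31.2 and 30.8 given above in siB AAI. No library of one group overlapped the other for these 3 genes.

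Replicate numbers were taken as pairing the libraries of these 2 groups, from correlations in the data and not from a label, as described for the processing. With the number as a block, 1 member was raised and 10 were lowered at the adjusted p alone, where 15.2% and 13.8% of all genes were in that fit. The other 7 lowered were HOXB2, HOXB7, HOXB9, HOXC5, HOXC9, HOXC10 and HOXD4, with differences between -0.40 and -0.82. HOXC5 had the largest of these (log2 difference -0.82 ± 0.28, SE, adjusted p = 0.088; adjusted p = 0.000554 with the block). Without SCR AAI replicate 3, siB AAI replicate 2 or siB AAI replicate 3, and with no block, HOXB1 was the 1 member left at the adjusted p.

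By position, all 11 tested members with numbers 9 to 13 lay lower in siB AAI, with a median of -0.45, against 5 of 8 with numbers 1 to 3 and a median of -0.03. The middle members, 4 to 8, had 11 of 15 lower and a median of -0.20. Groups that did not overlap, lower with siB, were seen for 10 of 34 members and for 15.8% of genes. Difference by position was not tested, since neighbouring members are not independent.

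**Figure D4:**
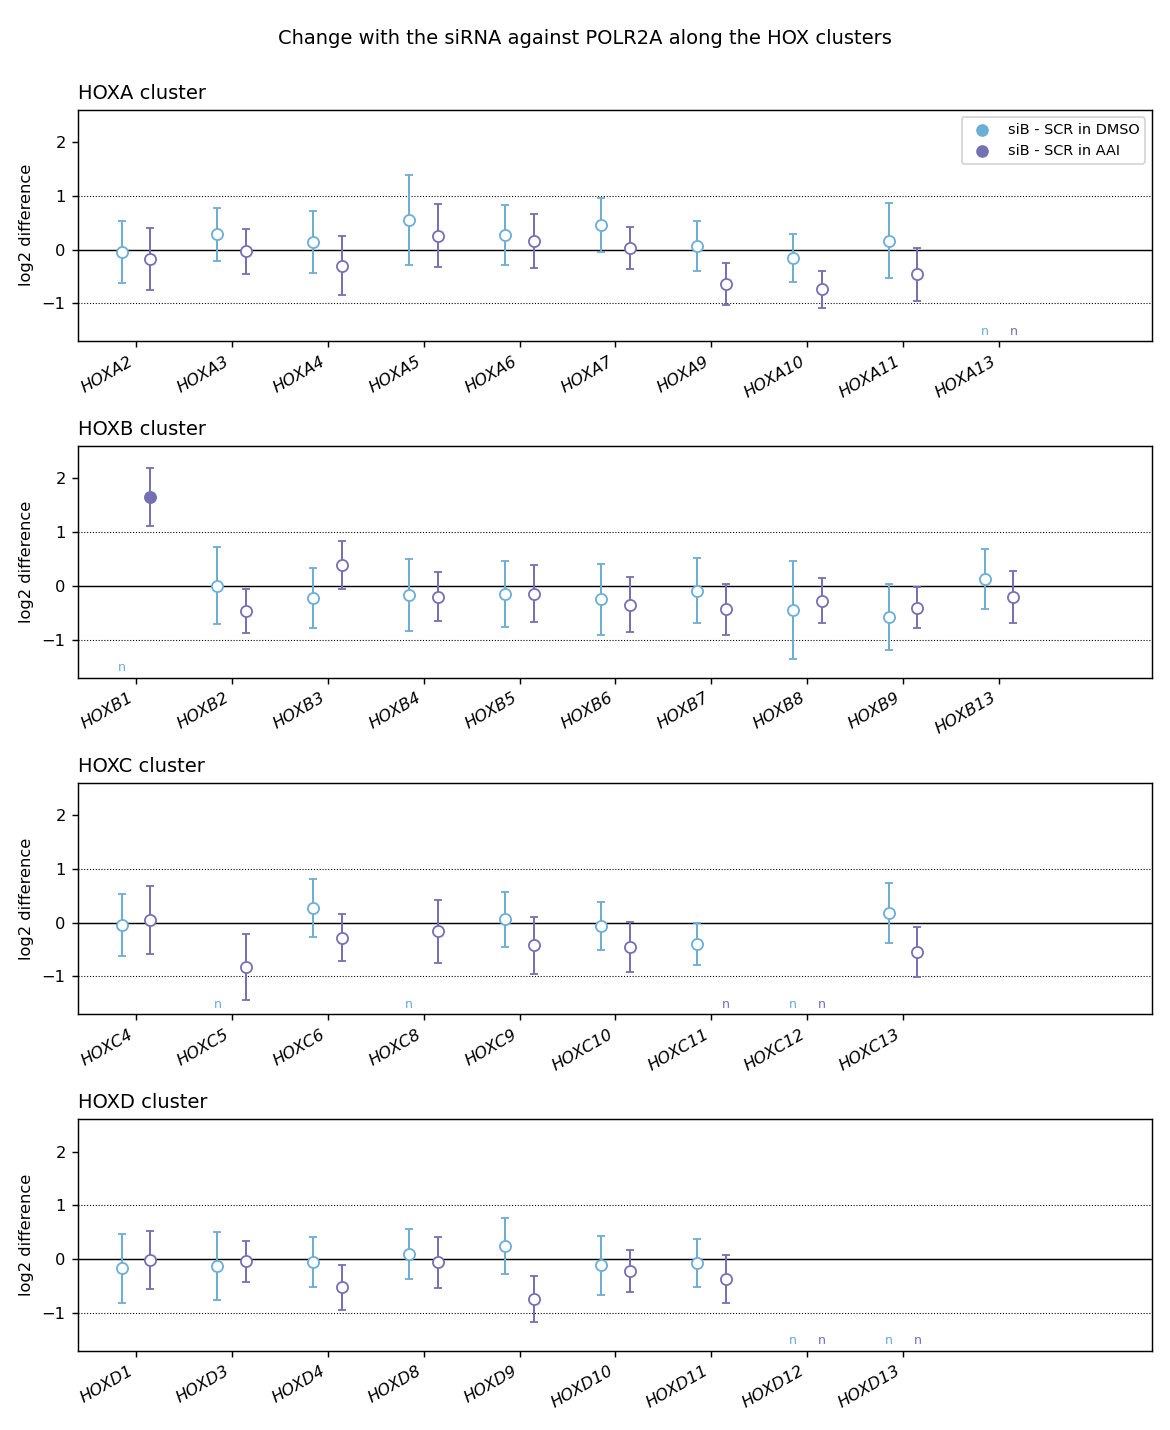
Difference between siB and SCR for HOX members, as log2(CPM + 1) with 95% confidence intervals from limma, in DMSO (light blue) and with AAI (purple); members run from the 3′ to the 5′ end. Filled points were called, open points were not, n marks members not tested, and dotted lines mark 2-fold; HOXB1 is the 1 filled point, and members numbered 9 and above lie below 0 with AAI.

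Without AAI, the knockdown of POLR2A gave no call in the clusters. None of 32 members tested passed the adjusted p in siB DMSO against SCR DMSO, and none of 13606 genes did (0% raised and 0% lowered in limma), while 644 genes and 1 member, HOXC11, had an unadjusted p under 0.05. The voom fit gave 0 calls as well, with 461 genes at an unadjusted p under 0.05. With all 4 groups in the fit, 11 genes were higher and 1 lower at the adjusted p, and 0 members. POLR2A, the target of the siRNA, did not pass in the limma fit of this pair either (adjusted p = 0.505). The absence of calls therefore does not show the absence of an effect. HOXC11 had 1.29, 1.43 and 1.1 CPM in SCR DMSO and 0.855, 0.586 and 0.725 in siB DMSO (log2 difference -0.40 ± 0.16, SE, adjusted p = 1), and it passed the filter only through SCR DMSO. It was the 1 member with all siB libraries lower, where 3.64% of genes were so, and HOXA7 the 1 with all higher, where 8.28% were. The medians were -0.04 for the members and 0.06 for all genes, and that of the members was 0.07 without SCR DMSO replicate 1. The 95% intervals of single members reached from -1.36 to 1.38, so a 2-fold change lay within the interval of some members.

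Whether the response to AAI differed with the siRNA was tested by the interaction over all 12 libraries. HOXB1 alone passed among 35 members (difference of log2 responses 1.70 ± 0.27, SE, adjusted p = 0.0113), where 1.46% of 15325 genes had a positive and 0.157% a negative interaction at that threshold. It reached 1 CPM in the siB AAI libraries alone, so it entered this test only through the group where it was high. With a pseudocount of 0.1 the adjusted p of HOXB1 was 0.0572, and with voom 0.176. HOXD9 (difference -0.99 ± 0.28, SE, adjusted p = 0.126) and HOXC5 (-1.01 ± 0.36, adjusted p = 0.226), which reached higher levels in SCR AAI than in siB AAI, did not pass. Markers of other cell types moved in siB AAI too. SLC12A3, a distal tubule transporter, had 0.0764 CPM in siB DMSO and 5.43 in siB AAI, and the summed level of the 4 markers of other nephron segments was 7.64 to 8.52 CPM in siB AAI against at most 1.77 in the other groups, with UMOD within the 3-read limit. The endothelial marker PECAM1 had 1.13 CPM in siB DMSO and 4.65 in siB AAI, and also passed the interaction test (adjusted p = 0.0314). The summed level of the 3 endothelial markers was 3.64 to 5.55 CPM in siB AAI against at most 1.66 in the other groups, with CDH5 below 1 CPM in each library. Of the 2 leukocyte markers, PTPRC had 0.485 CPM in siB DMSO and 2.70 in siB AAI (log2 difference 1.33 ± 0.18, SE, adjusted p = 0.000303), while the sum of both, mostly CD68, was 67.8 to 75 CPM in siB AAI and 67.5 to 84.7 in siB DMSO. The part of these markers in the HOXB1 values was not tested.

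Averaged over both siRNAs, AAI raised 7 of 35 members (HOXA2, HOXB1, HOXB5, HOXC5, HOXC8, HOXD3 and HOXD10) at 2-fold, where 11.1% of genes were raised. At the adjusted p alone 15 were higher and 1 lower, against 29.3% and 16.8% of genes. The lower one was HOXC11, with 0.718, 0.816 and 0.196 CPM in SCR AAI and 0.189, 0.323 and 0.375 in siB AAI against the DMSO values above (log2 difference -0.48 ± 0.12, SE, adjusted p = 0.00642). The siB effect averaged over treatments called none at 2-fold, where 0.202% of genes were raised and 0.0457% lowered. HOXB1 was the 1 member past the adjusted p, upwards, where 2.89% of genes were higher and 0.914% lower. In these averaged fits HOXB1 passed the filter only through siB AAI, HOXC5 only through the AAI libraries and HOXC11 only through SCR DMSO. With no filter the HOXB1 difference with AAI was 1.96 with siB (adjusted p = 0.000184) and 0.26 with SCR (adjusted p = 0.398).

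With SCR, the cluster totals that separated AAI from DMSO were those of HOXC and HOXD. Summed over its members, HOXD went from 44.6 ± 4.50 CPM (SD, n = 3) in SCR DMSO to 88.7 ± 3.08 in SCR AAI, and HOXC from 35.7 ± 5.66 to 64.7 ± 14.6, with no overlap of libraries. HOXA went from 262 ± 62.9 to 350 ± 63.7 and HOXB from 156 ± 47.3 to 208 ± 30.5, both with overlap. With siB, HOXD went from 43.6 ± 1.53 to 71.0 ± 6.26 CPM and HOXB from 126 ± 5.05 to 173 ± 23.3, while HOXA had 288 ± 3.78 and 284 ± 46.6. The sum over all 39 members was 499 ± 104 CPM in SCR DMSO, 711 ± 112 in SCR AAI, 494 ± 7.35 in siB DMSO and 576 ± 79.0 in siB AAI. HOXA9 alone made up much of the HOXA sum, so these sums describe chiefly the high members, and they were not tested.

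The response to AAI was also listed by paralog number, first with siB. Of 8 tested members numbered 1 to 3, 4 were raised (median 0.98), of 15 numbered 4 to 8, 3 were raised (median 0.40), and of 11 numbered 9 to 13, 1 was raised and 6 lay lower (median -0.09). With SCR the medians were 0.57, 0.52 and 0.32. HOXB1, among the 4 raised, passed the filter only through siB AAI and was not tested with SCR, while HOXC11 was tested with SCR only. The medians of the first and last sets therefore cover different members with each siRNA. Here too no test was made over members.

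The 9 members called in any comparison shared a feature of their neighbourhood in DMSO. Each had a lower level per kb, over the 6 DMSO libraries, than the member next to it on the 5′ side, from which transcription proceeds towards it. This held for 9 of 9 called members and for 9 of 26 others with a neighbour on that side. Lengths here are those of canonical transcripts, 1785 bases for HOXD10, against 2488 over all its annotated exons. With all annotated exons as the length, HOXD9 would not lie below HOXD10. HOXA2 had 1.04 CPM per kb against 14.9 for HOXA3, HOXC5 0.219 against 6.79 for HOXC6, and HOXC8 0.368 against 5.64 for HOXC9. HOXB1 had 0.00762 against 13.7 for HOXB2, whereas HOXB3 with 3.07 against 3.44 for HOXB4 and HOXD10 with 4.69 against 5.99 for HOXD11 were close to their neighbours. Gaps to the neighbour were 1971 to 11643 bp (median 4203) for 8 of the called members, HOXB3 being the one whose transcript begins beyond its neighbour, and 1328 to 98404 bp (median 6836) for 25 of the others. A low level in DMSO also enters the call itself, so this is a description and was not tested. Reads from upstream transcripts that run on into a gene cannot be told apart from its own in a table of counts per gene.

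**Figure D5:**
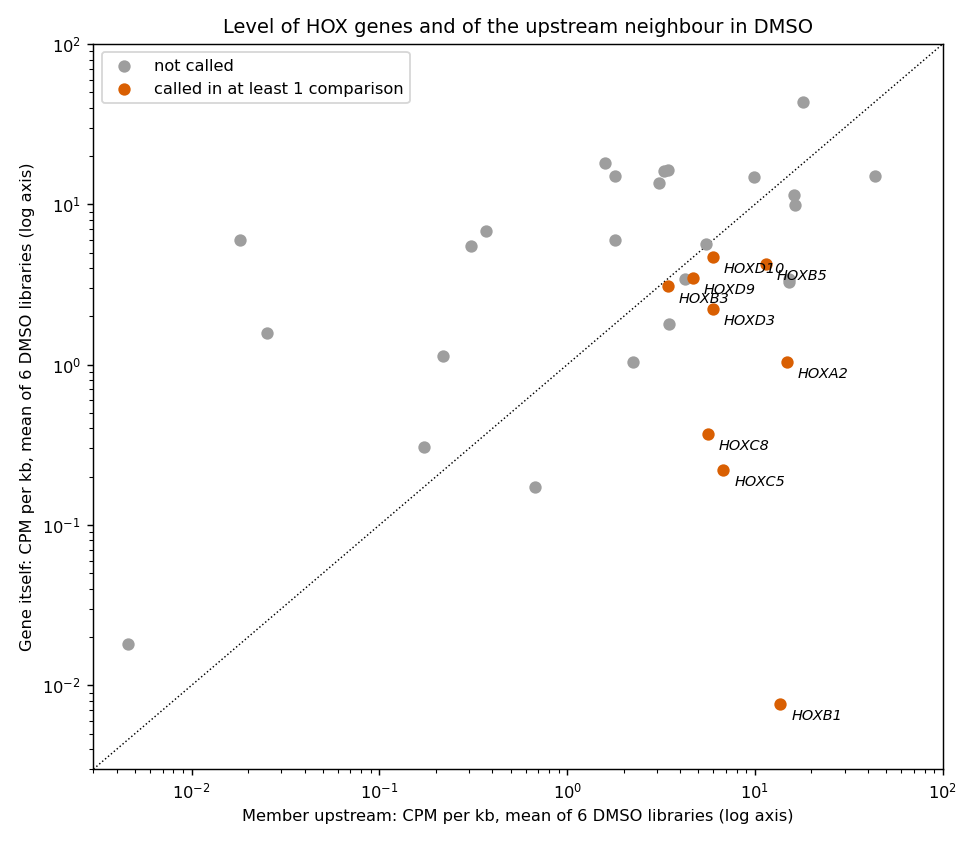
Levels of HOX members in DMSO (vertical) against that of the member next to each on the 5′ side (horizontal), in CPM per kb as means of 6 libraries on log axes. Orange points were called in at least 1 comparison and grey points were not; all 9 orange points lie below the dotted line of equal levels.

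Of 9 TALE cofactors, which bind DNA beside HOX proteins, 8 were tested with SCR and 1 was raised by AAI: PBX4 went from 3.50 ± 0.379 to 11.5 ± 2.34 CPM (log2 difference 1.46 ± 0.25, SE, adjusted p = 0.00845). With siB, PKNOX2 was the 1 raised, from 0.349 ± 0.157 to 2.70 ± 1.13 CPM (log2 difference 1.41 ± 0.25, SE, adjusted p = 0.00139), and it was also higher in siB AAI than in SCR AAI (log2 difference 1.19 ± 0.30, SE, adjusted p = 0.0282). PKNOX2 passed the low-value filter for AAI in siB only through the AAI libraries. Its call against SCR AAI was lost with no filter (adjusted p = 0.0684). It was also lost without SCR AAI replicate 3, siB AAI replicate 1 or siB AAI replicate 2. The list medians for AAI were -0.19 with SCR and 0.10 with siB, against 0.18 and 0.10 over all genes tested. Of all genes, AAI raised 7.73% with SCR and 13.9% with siB at 2-fold.

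Of 23 Polycomb genes, none was called with AAI in SCR, where the list median was 0.29, and 3 were called in siB. RING1, a catalytic H2A ubiquitin ligase, went from 39.4 ± 2.07 to 11.7 ± 1.47 CPM (log2 difference -1.68 ± 0.14, SE, adjusted p = 1.92e-05), and it was also lower in siB AAI than in SCR AAI (log2 difference -1.05 ± 0.18, SE, adjusted p = 0.00554). PHC1, a structural subunit, went from 33.6 ± 3.62 to 16.3 ± 3.92 CPM (log2 difference -1.02 ± 0.18, SE, adjusted p = 0.00119). Its paralog PHC3 went the other way, from 48.6 ± 18.2 to 103 ± 24.9 CPM (log2 difference 1.09 ± 0.25, SE, adjusted p = 0.00532). At 2-fold, AAI with siB raised 13.9% and lowered 5.79% of all genes. At the adjusted p alone, 5 of 23 were higher and 7 lower in siB, where 30.4% and 21.8% of all genes were. None of 15 trithorax, H3K27 demethylase and insulator genes was called at 2-fold in any comparison, with 6 higher and 1 lower at the adjusted p alone for AAI in siB, against the same shares of all genes.

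No tested gene of the retinoic acid pathway was called as raised by AAI at 2-fold on the log2(CPM + 1) scale with either siRNA. Of 17, 11 were tested with AAI in siB and 2 were lowered: CYP26C1, which degrades retinoic acid, went from 8.67 ± 0.526 to 1.64 ± 0.257 CPM (log2 difference -1.88 ± 0.17, SE, adjusted p = 2.44e-05) and STRA6, a retinol uptake receptor, from 16.9 ± 1.43 to 4.98 ± 1.92 (log2 difference -1.62 ± 0.22, SE, adjusted p = 0.000295). Past the adjusted p alone, CYP26B1, another enzyme that degrades retinoic acid, was higher with AAI under both siRNAs, from 0.315 ± 0.0180 to 1.14 ± 0.105 CPM with SCR (log2 difference 0.70 ± 0.15, SE, adjusted p = 0.0229) and from 0.460 ± 0.236 to 1.75 ± 0.468 with siB (log2 difference 0.91 ± 0.20, SE, adjusted p = 0.00422). It passed the filter only through the AAI libraries. The receptor RARA was higher with AAI in siB, from 46.3 ± 3.94 to 91.9 ± 33.4 CPM (log2 difference 0.92 ± 0.22, SE, adjusted p = 0.00609). The receptor RARG was lower in siB AAI than in SCR AAI (log2 difference -1.08 ± 0.18, SE, adjusted p = 0.00515), at 10.5 ± 0.173 against 23.6 ± 3.22 CPM. With SCR none of 11 was called at 2-fold with AAI and the list median was 0.26, against -0.35 with siB. Over all genes tested the medians were 0.18 and 0.10, and AAI with siB lowered 5.79% at 2-fold. At the adjusted p alone, AAI with siB left 2 of the 11 higher and 5 lower, against 30.4% and 21.8% of genes.

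Genes next to the clusters gave no raised call at 2-fold. Of 25 flanking genes listed, 22 had a row, and of 19 tested with AAI in SCR none was raised and 2 were lowered: CALCOCO1, beside HOXC, from 40.5 ± 12.5 to 14.5 ± 2.95 CPM (log2 difference -1.40 ± 0.30, SE, adjusted p = 0.0202) and SKAP1, beside HOXB, from 8.23 ± 3.01 to 2.26 ± 0.239 (log2 difference -1.45 ± 0.29, SE, adjusted p = 0.0151). Both were lowered with siB as well, and the list medians were -0.19 with SCR and -0.13 with siB, against 0.18 and 0.10 over all genes tested. Of all genes, AAI lowered 2.73% with SCR and 5.79% with siB at 2-fold. Of 11 kidney patterning partners, LHX1 was the 1 called, lowered with AAI in siB from 155 ± 5.65 to 76.9 ± 11.1 CPM (log2 difference -1.01 ± 0.12, SE, adjusted p = 0.000137). No ParaHOX gene reached the filter in any comparison. Of 31 HOX cluster noncoding RNA names, 1 had a row (PRAC2) and was too low to be tested, so the antisense RNAs of the clusters were not analysed here.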

How the data were processed

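Poly(A) RNA from 12 HK-2 libraries was sequenced as paired-end reads. The authors mapped these to build hg38 and obtained counts for each gene of a UCSC annotation, as the paper's methods state. The aligner, its version and the strand setting are not given in the sources used here. The authors deposited 35238 genes as log10 of CPM plus 1, with no filter and no further scaling between libraries. Undoing the logarithm gave values with a library total of 1000000, and at least 99.9951% of values were whole multiples of 1 read within a tolerance of 0.05, so CPM and reads were recovered. No 2 replicates were copies of one library (chi-square per degree of freedom at least 4.23).

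Groups came from the sample titles, because a treatment label read DMSO for every sample. Each pair of groups was fitted alone with limma 3.58.1 (trend) in R 4.3.3 on log2(CPM + 1), over genes with at least 1 CPM in at least 3 fitted libraries. Adjusted p is Benjamini-Hochberg over all genes tested, and a gene was called at an adjusted p under 0.05 and at least 2-fold (no fold limit for the interaction, fitted over all 4 groups). The test recovered known changes in simulated counts. These had 1 fixed spread between replicates for all genes, not the spread of these libraries, so recovery at that spread was not measured. Transcript lengths, gaps and overlaps came from GENCODE release 44, on the same build. Alternatives were a pseudocount of 0.1, no filter, median-ratio size factors, voom with a trimmed-mean (TMM) scaling written for this work, a replicate block, all 4 groups in the fit, and each library left out.

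The values of 1 member are not reported here, in the text or the plots, and it stays in the counts, medians and sums. Values per library are given for members called, for the highest member per kb of each cluster, and for members at the edges of active runs with their neighbours. Genes of other lists are named where called. HOXA5, HOXA7, HOXB4, HOXC9, HOXD4, CYP26B1 and RARA were named after their values were seen. The members and lists were chosen with earlier results of these data known.

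Replicate numbers were taken as pairing where every same-numbered pair of libraries correlated above 0.1 in its deviations from the group means (15325 genes). This held for SCR DMSO with SCR AAI (0.42, 0.47 and 0.34) and for SCR AAI with siB AAI (0.61, 0.32 and 0.29), from the data and not from a label. It did not hold for siB DMSO with siB AAI (lowest 0.03), for SCR DMSO with siB DMSO (lowest -0.19) or for SCR DMSO with siB AAI (lowest -0.03). Correlations between differently numbered libraries were not computed, so pairing cannot be told apart from another shared source of variation.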

Additional observations from a re-analysis of the deposited data

Results flagged for a closer look

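HOXB1, the 3′-most member of its cluster, was singled out because its response to AAI differed between the siRNAs by the interaction test (1.70 on the log2 scale, adjusted p = 0.0113, limma over 12 libraries). HOXB1 entered this test only through siB AAI, the group where it was high. Of 15325 genes tested, 1.46% had a positive interaction at that threshold. HOXB1 had 0 reads in siB DMSO, 161 in siB AAI, 3 in SCR DMSO and 15 in SCR AAI. It was higher with AAI in 3 of 3 siB libraries. The interaction was not past the threshold with a pseudocount of 0.1 or with voom, and with voom 0 of all 15325 genes passed.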

How the results depend on the processing

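No result past its threshold reversed its direction under the alternatives run. Printed differences that had not passed did: for AAI in SCR, HOXB4 was -0.11 with size factors, -0.084 with voom and between -0.14 and 0.23 with 1 library left out, HOXD11 was -0.045 with size factors and -0.0058 with voom, and HOXC4 was between -0.38 and 0.11 with 1 library left out. For AAI in siB, HOXB4 was -0.056 with size factors, -0.037 with voom and between -0.12 and 0.18 with 1 library left out. For AAI in SCR the count of HOX members called was 4 with no filter, at 2-fold and at the adjusted p alone, and the adjusted p alone gave 13 with all 4 groups in the fit (12 raised, where 17.6% of all genes were), against 7 in both cases. For siB in AAI the adjusted p alone gave 2 members with no filter and, with the replicate number as a block, 11, against 4. The block changed no other call at 2-fold. The interaction gave 0 members with a pseudocount of 0.1 and 0 with voom, against 1, and voom gave 0 over all genes as well. With a mean of 0.5 CPM as the limit, 2 members were weak instead of 5. The cause of these changes was not tested.

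With 1 library left out, the called counts ranged from 3 to 7 for AAI in SCR (3 to 11 at the adjusted p alone), 7 to 8 for AAI in siB (10 to 15), 1 to 1 for siB in AAI (1 to 3), 0 to 0 for siB in DMSO, 1 to 2 for the interaction, 7 to 9 for AAI averaged over siRNAs and 0 to 0 for siB averaged over treatments. For AAI in SCR, the genes raised at 2-fold over the whole table ranged from 757 to 1235 in these fits. The 2 members at the interaction appeared without SCR DMSO replicate 2, where HOXD9 passed as well. Of 877 values for single genes under alternatives, 810 kept their direction and side of the threshold, 49 lost the call, 5 gained it and 13 reversed. With no filter HOXB5, HOXC8 and HOXD3 lost the call for AAI in SCR (adjusted p = 0.0641, 0.0672 and 0.0501), and HOXD3 also lost it with size factors (0.0629) and with voom (0.0553). Members near 1 CPM or below are limited by depth.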
